A study of Homo sapiens with 12 samples.

Results

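The genes described here copy DNA. They are 53 genes whose products mark replication origins, load the helicase, start it, copy both strands and keep the fork intact. They were taken by gene symbol from a fixed list, which was drawn up with earlier results of these data known. All 53 were found among the 59276 features of the table and among the 11939 features tested. The RNA came from cells of MM1S, a human multiple myeloma line of malignant plasma cells. Of the 12 libraries, 3 carry the time point of day 0, and 3 each were made after 2, 3 and 5 days with NGI-1, an inhibitor of the oligosaccharyltransferase (OST), the enzyme complex that attaches N-linked sugars to proteins in the endoplasmic reticulum. The labels name NGI-1 as the treatment of all 12 libraries, and the day 0 libraries are called untreated here because the study treats them as its untreated control. All groups share the same cell line, no library of untreated cells from a later day was analysed here, and time in culture and time with NGI-1 cannot be told apart. Nothing in the labels says that the 3 libraries of a group came from separate cultures, so p-values measure only the spread between these libraries.

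A cell prepares each origin for copying before S phase and fires it only once. In G1 the origin recognition complex, with CDC6 and CDT1, places the ring of MCM2 to MCM7 on DNA, and geminin (GMNN) later blocks CDT1. The kinase CDC7 with DBF4, together with TICRR, TOPBP1, CDC45, the GINS complex and MCM10, then turns the ring into a moving helicase, behind which polymerases work on a sliding clamp of PCNA. Many of these genes are known targets of E2F factors, which act at the passage from G1 into S phase, and dividing myeloma cells express them while resting cells largely do not.

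Every value is a deposited log2 of TPM plus 1, where TPM is a length-corrected share of the transcripts in a library. The labels state at least 60 M paired-end reads from 200 ng of RNA per library, but TPM keeps no read count, and no counting error can be given. In each library 18164 to 20407 features were above 0. Of 9 plasma cell markers, 8 were at 1 TPM or more in every library, and the summed level of the list lay between 3005 and 4039 TPM. IGLC2 was the exception. The summed level of the T cell, myeloid, fibroblast, erythroid and epithelial lists was at most 8.37 TPM in any library. In bulk RNA, fewer cells of a type (here, cells in S phase) and less RNA per cell cannot be told apart.

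Promoter sequences, from RefSeq on GRCh38.p14, were matched for 46 of the 53 genes, and MCM4, MCM5, GINS4, POLD3, RPA2, RPA3 and FAM111B had no entry. In the 250 bases before the start, an E2F-type motif (TTTCCCGC, TTTCGCGC, TTTGCCGC or TTTGGCGC, on either strand) was found in 15 of the 46 genes, or 32.6%, and in 3.4% of all 27305 genes in the table. With the 50 bases after the start included, the count was 23 of 46, against 3.99% of all genes. A CCAAT motif, on either strand, was found before the start of 27 of the 46 genes (58.7%, against 37% of all genes). The CHR letters TTTGAA or TTCGAA were found in 1 of the 46, MCM6 (2.17%, against 17.2% of all genes). Of the promoters with a match, 5 from different steps of replication are printed here with 2 origin recognition genes that were not lowered, ORC3 and ORC4, so that the letters can be read beside the values that follow. Each is the stretch just before a RefSeq start, 5′ to 3′ on the gene's strand, with the E2F-type letters in capitals. Where a gene had several starts, a stretch with a match was preferred. By the GENCODE annotation all 30 bases of the ORC3 stretch lie in an exon, as do 23 bases of POLE and 26 of ORC4. They are GMNN at chr6:24775293-24775412 (plus strand), MCM6 at chr2:135876444-135876563 (minus strand), CDC7 at chr1:91500992-91501111 (plus strand), POLE at chr12:132687343-132687462 (minus strand), PCNA at chr20:5126623-5126742 (minus strand), ORC3 at chr6:87590105-87590134 (plus strand, 30 bases) and ORC4 at chr2:148020738-148020857 (minus strand).
GMNN: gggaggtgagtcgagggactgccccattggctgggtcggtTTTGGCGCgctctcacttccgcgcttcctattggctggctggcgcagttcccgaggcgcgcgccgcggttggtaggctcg
MCM6: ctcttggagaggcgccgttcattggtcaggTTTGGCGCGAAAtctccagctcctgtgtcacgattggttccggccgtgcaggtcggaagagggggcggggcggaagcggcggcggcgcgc
CDC7: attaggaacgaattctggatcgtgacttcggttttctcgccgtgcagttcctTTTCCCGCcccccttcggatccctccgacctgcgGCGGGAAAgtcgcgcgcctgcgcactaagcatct
POLE: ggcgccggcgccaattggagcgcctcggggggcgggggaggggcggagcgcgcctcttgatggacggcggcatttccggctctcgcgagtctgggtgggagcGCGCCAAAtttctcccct
PCNA: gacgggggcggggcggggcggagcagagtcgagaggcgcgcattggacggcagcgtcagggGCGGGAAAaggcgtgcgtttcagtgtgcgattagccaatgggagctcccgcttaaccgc
ORC3: ctgcagccgcgagggcgcGCGGGAAAtccc
ORC4: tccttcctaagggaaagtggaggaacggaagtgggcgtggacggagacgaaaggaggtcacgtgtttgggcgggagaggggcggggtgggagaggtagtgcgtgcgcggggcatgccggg
In MCM6 the capitals are 2 overlapping matches, and CDC7 has 2 separate ones. ORC4 has no match in the stretch shown. ORC3, which was called on no day, carries the same 8 letters as PCNA, and its stretch lies within an annotated exon. The level of PCNA fell by more than that of any clamp loader gene in the first 2 days. Among those genes is RFC3, which also has a match before its start. Whether the letters or their place bear on the level was not tested. Among the 46 genes, the 23 with a match in the whole 300-base window kept a median of 26.1% of their untreated TPM at day 2 and 6.71% at day 5, and the 23 without kept 32.1% and 9.72%. The ranges of these lists overlapped over most of their length, from 15.04% to 91.5% with a match and from 10.4% to 99.1% without at day 2. A match is a description of letters and not a measured binding site.

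Most of the 53 genes fell early, and fell further by day 3. With NGI-1 for 2 days, 48 were called lower and 0 higher, where a call needed a change of more than 0.5 on the log2 scale and, in limma's test, a Benjamini-Hochberg adjusted p under 0.05. Of all tested features, 23.2% were called lower and 8.04% higher on that day. At day 3, 49 were lower and 1 higher (61.5% and 7.59% of all features), and at day 5, 50 were lower and 1 higher (69.8% and 7.73%). The median log2 fold change of the 53 genes was -1.62, -2.81 and -3.19 at days 2, 3 and 5, and that of all tested features was -0.18, -0.73 and -0.99.

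The whole table moved down as well. After each library was rescaled so that its median feature stayed level, 11.4%, 24.2% and 26.9% of all features were called lower at days 2, 3 and 5, and 12.9%, 23.9% and 27.5% higher. The counts of replication genes were then 48, 49 and 49 lower and 0, 3 and 3 higher, and their median log2 fold changes were -1.38, -2.03 and -2.08. On the linear scale the summed level of the 53 genes was 2248 ± 34.7 TPM in untreated libraries, and 747 ± 17.0, 355 ± 16.7 and 279.5 ± 17.9 TPM on the 3 treated days (SD, n = 3 each). The median gene kept 28.98%, 9.56% and 6.75% of its untreated TPM, and the median of all tested features kept 86.1%, 53.7% and 42.6%. All 3 libraries of a day lay below all 3 untreated libraries for 50 of the 53 genes on each of the days 2, 3 and 5, where 44.1%, 70.5% and 75.2% of all features did so.

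**Figure D1:**
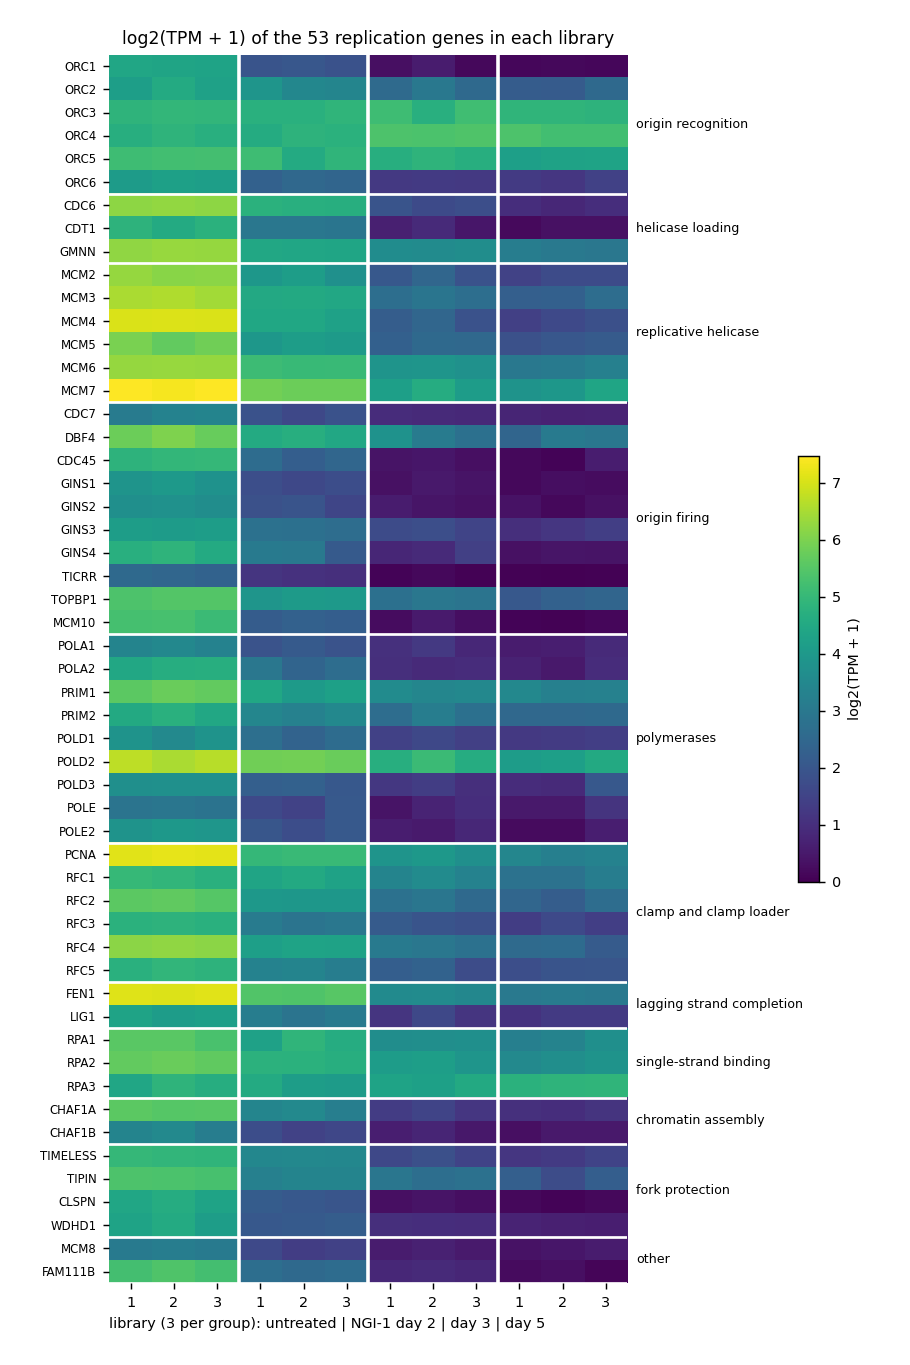
Level of each replication gene in each library. Rows are the 53 genes by role, columns are the 12 libraries in groups of 3, and color is log2(TPM + 1). Color drops between the untreated and the day 2 libraries and again at day 3 in nearly every row, while ORC3, ORC4 and RPA3 stay at a similar or higher color.

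The origin recognition complex split into subunits that fell and subunits that did not. Its 6 subunits bind origins, and ORC1, the subunit that recruits CDC6 with its partners and is known to rise and fall with the cell cycle, stood at a log2(TPM + 1) of 4.42, 4.37 and 4.33 in untreated libraries, at 1.93, 2.04 and 1.89 on day 2, at 0.30, 0.58 and 0.17 on day 3 and at 0.13, 0.16 and 0.12 on day 5. All treated libraries lay below all untreated ones, and the day 5 libraries were close to 0. Its fold changes of -2.42 on day 2 (standard error 0.127, limma adjusted p = 1.61e-08) and -4.24 on day 5 (adjusted p = 3.83e-12) are on the log2 scale and left 14.6% and 0.495% of the untreated TPM. ORC6, a loosely held subunit, also fell, by 1.76 at day 2 and 2.89 at day 5, and ORC2 fell more slowly, by 0.75 and 2.06.

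ORC4, an ATPase-fold subunit of the same complex at chr2:147930397-148021604 (GRCh38, minus strand), went the other way. Its log2(TPM + 1) was 4.69, 4.85 and 4.71 untreated, 4.60, 4.83 and 4.77 on day 2, 5.37, 5.36 and 5.40 on day 3 and 5.39, 5.22 and 5.21 on day 5. Day 2 overlapped the untreated libraries, and days 3 and 5 lay above all of them. The rise was 0.63 at day 3 (standard error 0.0947, limma adjusted p = 3.42e-05) and 0.52 at day 5 (adjusted p = 1.46e-04), close to the threshold of 0.5. Rescaled, it was 1.47 higher at day 3 and 1.71 higher at day 5. The day 5 call was lost without untreated replicate 1 or day 5 replicate 1, where the fold change was 0.49 and 0.46.

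ORC3, which sits beside ORC2 in the complex, was at 4.86, 4.95 and 4.93 untreated, 4.75, 4.73 and 4.89 on day 2, 5.14, 4.71 and 5.17 on day 3 and 4.88, 4.89 and 4.83 on day 5. Its groups overlapped on every day, and no log2 fold change passed the test (-0.12, 0.09 and -0.04). Rescaled, it was 0.93 higher at day 3 and 1.14 higher at day 5. ORC5 was between these, with log2 fold changes of -0.35 and -0.47 that missed the threshold at days 2 and 3 and a fall of 0.92 at day 5 (limma adjusted p = 9.54e-06), which rescaling turned to 0.26 with no call. Exons of ORC4 overlap those of ACVR2A and MBD5 on the opposite strand, and how the quantification used strand is not given in the sources used here.

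**Figure D2:**
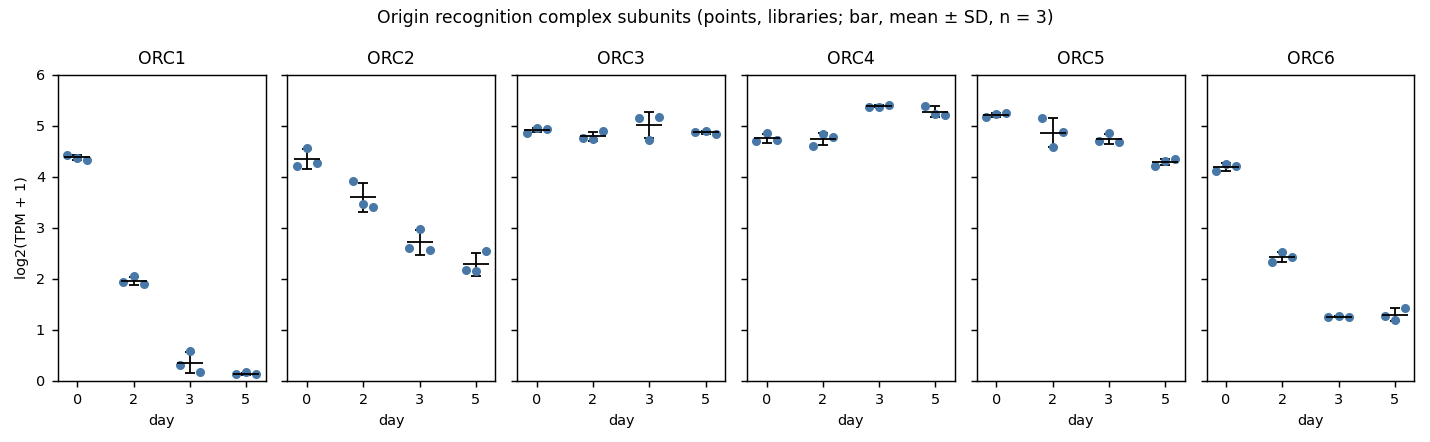
Origin recognition subunits by library. The y axis is log2(TPM + 1), the x axis the day, points are libraries and bars are mean ± SD (n = 3). ORC1 and ORC6 drop steeply, ORC2 and ORC5 slope down, ORC3 stays level and ORC4 lies higher from day 3.

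The loading factors CDC6 and CDT1 fell by more between day 2 and day 3 than in the first 2 days. CDC6, the ATPase that joins the origin recognition complex to load the helicase, was at 6.21, 6.26 and 6.21 untreated, 4.77, 4.71 and 4.68 on day 2, 1.94, 1.67 and 1.80 on day 3 and 0.97, 0.83 and 0.97 on day 5. No group overlapped another. Its TPM was 73.8 ± 1.45, 25.4 ± 0.828, 2.5 ± 0.321 and 0.899 ± 0.105 (SD, n = 3 each), so that 34.4% was left at day 2, 3.39% at day 3 and 1.22% at day 5. The step from day 2 to day 3, -2.92 on the log2 scale (standard error 0.105, limma adjusted p = 5.97e-10), was larger than its fall in the first 2 days (-1.50). It was the largest such step of the 53 genes on the log2(TPM + 1) scale, but not with a pseudocount of 0.1 TPM, where the steps of CDC45 (-3.49), MCM10 (-3.40) and CDT1 (-3.31) were larger.

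CDT1, the other loading factor, kept 26.1% of its untreated TPM at day 2, 2.39% at day 3 and 0.895% at day 5, with log2 fold changes of -1.79, -4.05 and -4.43. Geminin, its inhibitor, kept 27.03%, 14.97% and 9.54%, with log2 fold changes of -1.84, -2.64 and -3.22. The TPM of CDT1 relative to GMNN was thus 0.334 untreated and 0.323 at day 2, and 0.0533 and 0.0314 at days 3 and 5. In the log2 difference of the same libraries, CDT1 minus GMNN, every day 3 and day 5 library lay below every untreated and every day 2 library.

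All 6 subunits of the replicative helicase were called lower on days 2, 3 and 5, where 23.2%, 61.5% and 69.8% of all features were. MCM4 fell most, from 7.06, 7.07 and 7.04 untreated to 4.44, 4.44 and 4.28 on day 2, 2.19, 2.47 and 1.87 on day 3 and 1.42, 1.66 and 1.83 on day 5. Its groups did not overlap, and its log2 fold change at day 5, -5.42 (standard error 0.147, limma adjusted p = 1.41e-12), was the largest fall of the 53 genes on the log2(TPM + 1) scale. The day 2 fold changes of the others were -2.26 for MCM2, -2.0 for MCM3, -1.77 for MCM5, -1.63 for MCM7 and -1.23 for MCM6. By day 5 they were -4.58, -4.11, -3.83, -3.37 and -3.19 in the same order. The largest limma adjusted p among these 12 values was 1.12e-06.

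The ring is built of equal numbers of its subunits, but their transcripts did not fall by equal amounts. MCM6 kept 41.8% of its TPM at day 2 against 15.1% for MCM4, and 9.84% against 1.61% at day 5. MCM7, the most abundant of the 53 genes in untreated cells at 173 ± 5.74 TPM, stood at 16.0 ± 3.53 TPM on day 5 (SD, n = 3). MCM4, which began at 132 ± 1.58 TPM, ended at 2.13 ± 0.436. From day 3 to day 5 the fall of MCM6 went on (-0.74, limma adjusted p = 1.74e-04), while MCM7 changed by -0.26 with overlapping groups.

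The genes that turn the loaded ring into a running helicase held both the deepest fall by TPM and a slower set. MCM10, a scaffold at chr10:13161554-13211104 (GRCh38, plus strand) that activates the helicase, was at 5.26, 5.30 and 5.10 untreated, 2.18, 2.33 and 2.24 on day 2, 0.24, 0.54 and 0.28 on day 3 and 0.07, 0.05 and 0.14 on day 5. At -2.97 on the log2 scale (standard error 0.123, limma adjusted p = 1.89e-09) it fell furthest of the 53 genes in the first 2 days, and 10.4% of its TPM was left. At day 5 it stood at 0.0635 ± 0.0347 TPM (SD, n = 3), or 0.175% of its untreated level, and shares this small carry a spread between libraries of the same order as the value.

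CDC45 and the 4 GINS genes encode the partners that complete the running helicase. All 5 were called lower on days 2, 3 and 5, where 23.2%, 61.5% and 69.8% of all features were. CDC45 kept 15.2%, 1.04% and 0.763% of its TPM, and GINS1 kept 16.4%, 2.36% and 1.24%. GINS3 was the slowest of its complex, at 34.03%, 13.3% and 7.82%. GINS4 varied most between libraries on day 2, at 3.06, 3.03 and 2.13. TICRR, which brings TOPBP1 to the loaded helicase, was low from the start (4.49 ± 0.412 TPM, SD, n = 3) and fell to 0.349% of that at day 5, although its log2 fold change was only -2.43 because 1 is added to every TPM.

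The kinase pair and TOPBP1 kept larger shares than CDC45, GINS1 and TICRR on each day. This did not hold against GINS3, which kept 34.03% and 13.3% at days 2 and 3, more than CDC7. CDC7, the catalytic subunit, kept 28.98%, 10.1% and 7.92% of its TPM, and DBF4, its activating partner, kept 40.2%, 15.5% and 10.9%. DBF4 libraries spread widely on day 3 (3.81, 3.11 and 2.76), although all lay below the 5.73 to 6.03 of untreated cells. TOPBP1, a scaffold also used in checkpoint signaling, kept 35.6%, 14.97% and 9.17%.

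All 9 polymerase genes were called lower on all 3 days, where 23.2%, 61.5% and 69.8% of all features were. A median of 92.6% of their day 5 fall was present at day 3, close to the 90.6% over all members that fell. Among the genes of polymerase alpha and primase, which lay down the primers, POLA2 fell most (-3.88 at day 5, limma adjusted p = 5.45e-11, 2.84% of TPM left) and PRIM2 least (-2.06, adjusted p = 5.85e-09, 20.6% left). POLA1 and PRIM1 kept 6.75% and 18.2%. POLD2, an accessory subunit of polymerase delta and the most abundant of the 9, fell from 99.3 ± 7.59 to 55.9 ± 2.71 TPM at day 2 and to 18.8 ± 3.11 at day 5 (SD, n = 3). POLD1, the catalytic subunit, fell by 1.14 at day 2 and 2.41 at day 5.

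The 2 subunits of polymerase epsilon among the 53 genes drew apart. This polymerase copies the leading strand. POLE2 had the largest day 2 fall of the 9 genes (-1.97, limma adjusted p = 2.83e-07), and POLE, the catalytic subunit, fell by 1.15. In TPM, POLE2 was at 2.20 times POLE in untreated cells, 1.20 times at day 2, 0.866 at day 3 and 0.429 at day 5. Of the epsilon subunits outside the 53, POLE3 was called lower on each day, with log2 fold changes of -0.99, -2.21 and -2.71. POLE4 was called on no day (-0.36, -0.10 and -0.33), and rescaled it was called higher by 0.85 at day 5. Day 5 replicate 3 stood above its partners for POLE (1.13 against 0.51 and 0.50) and POLD3 (2.06 against 0.94 and 0.89), and POLD3 had the largest spread of the 53 genes on that day (SD 0.666).

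PCNA, the clamp, was among the most abundant of the genes and fell steeply in the first 2 days. By day 2 it had made 55.3% of its day 5 fall, near the median of 51.4% over the members that fell. It was at 7.12, 7.18 and 7.16 untreated, 4.98, 5.05 and 5.07 on day 2, 3.88, 3.97 and 3.71 on day 3 and 3.43, 3.21 and 3.32 on day 5. Groups did not overlap, and the log2 fold changes were -2.12, -3.3 and -3.84 (limma adjusted p = 6.14e-13 at day 5). RFC1, the large subunit of the loader that opens the clamp, was at 4.99, 4.91 and 4.74 untreated, 4.37, 4.55 and 4.31 on day 2, 3.38, 3.61 and 3.31 on day 3 and 2.83, 2.81 and 3.18 on day 5.

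RFC1 was thus the slowest gene of the clamp machinery. Its fold change at day 2, -0.47, missed the size threshold (limma adjusted p = 0.0102) although no day 2 library reached the untreated ones, and it fell by 1.45 at day 3 and 1.94 at day 5. The small loader subunits RFC2 to RFC5 kept 25.8% to 32.1% of their TPM at day 2 and 6.26% to 10.03% at day 5. RFC1 kept 71.3% and 23.6%. PCNA also has pseudogenes in the annotation (PCNAP1, PCNAP3 and PCNAP4), as have RPA2, RFC3, RFC5, FEN1, DBF4 and POLD2, and reads shared with such copies were not separable here.

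The remaining fork genes covered the whole range. FEN1 and LIG1, which trim and seal the lagging strand, fell by 1.65 and 1.21 at day 2 and by 4.06 and 3.03 at day 5. RPA1 and RPA2, subunits of the protein that coats single strands and also serves repair, fell by 0.88 and 0.95 at day 2 and by 2.05 and 2.00 at day 5. RPA3, the smallest subunit, was not called on any day: it was at 4.43, 4.86 and 4.65 untreated, 4.57, 4.17 and 4.10 on day 2, 4.34, 4.26 and 4.53 on day 3 and 4.77, 4.86 and 4.88 on day 5. Its groups overlapped on each day, and its log2 fold changes were -0.37, -0.27 and 0.19. After rescaling it was 0.56 higher at day 3 and 1.37 higher at day 5.

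Chromatin assembly and fork protection genes were called lower on each day, where 23.2%, 61.5% and 69.8% of all features were. CHAF1A, of the complex that puts histones on new DNA, changed by -2.17 at day 2 and -4.49 at day 5, and its partner CHAF1B by -1.75 and -2.91. CLSPN, which carries the replication checkpoint signal at the fork, kept 15.04% of its TPM at day 2 and 0.458% at day 5, a log2 fold change of -4.33 (limma adjusted p = 2.18e-12). WDHD1, which ties the helicase to polymerase alpha, kept 17.2%, 5.00% and 3.10%.

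TIMELESS and TIPIN form a pair that travels with the fork, and their falls came at different times. TIPIN fell by 2.02 and TIMELESS by 1.45 in the first 2 days. From day 2 to day 3, TIMELESS fell by 1.83 (limma adjusted p = 1.06e-07) and TIPIN by 0.53. TIPIN then fell by 0.72 from day 3 to day 5 (adjusted p = 2.58e-03), and TIMELESS changed by -0.32 with overlapping groups. MCM8, a helicase used in recombination repair, kept 24%, 6.80% and 5.04%, and FAM111B, a protease gene expressed in S phase, kept 13.5%, 2.09% and 0.423%. FAM111B libraries were at 5.24, 5.41 and 5.25 untreated and at 0.23, 0.31 and 0.11 on day 5.

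By role, the order of the medians changed with time. At day 2 the genes kept a median of 20.02% in fork protection, 24% in origin firing, 26.06% in the helicase ring, 27.03% in loading, 28.6% in the clamp machinery, 36.3% among polymerases, 53.9% in single-strand binding and 68.4% in origin recognition. At day 5 loading and origin firing had the lowest medians, 1.22% and 1.52%. Fork protection had 4.12%, the helicase ring 5.09%, the clamp machinery 8.21%, polymerases 12.1%, single-strand binding 23.6% and origin recognition 35.8%. The median of loading, from 3 genes, thus went from the middle of the order to its lowest place. It was the value of GMNN at day 2 and of CDC6 at day 5. GMNN itself kept 9.54% at day 5, above the medians of the helicase ring and the clamp machinery. Genes of neighbouring roles overlapped in both orders, except at day 5 where the highest polymerase gene (20.6%) was below the lowest single-strand binding gene (22.6%). The difference between roles was not tested.

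Further genes of the same pathway, outside the 53, had higher medians of TPM left. Of 36 further replication genes, such as TOP2A and DNMT1, 26, 31 and 33 were called lower at days 2, 3 and 5 and 0 higher, where 23.2%, 61.5% and 69.8% of all features were lower. Rescaled, 21, 25 and 24 were lower and 2, 4 and 4 higher, where 11.4%, 24.2% and 26.9% of all features were lower. A median of 49.9%, 23.0% and 14.8% of the untreated TPM was left. Genes of mitosis had a median close to that of the replication genes at day 2 and lower ones later. All 30 of that list, such as PLK1 and CCNB1, were called lower on each day, with medians of 29.9%, 2.83% and 0.851% left.

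To ask when each gene fell, the change in the first 2 days was set against the change from day 2 to day 5 in the same fit, as the first minus the second. A negative value means that the first step was the more negative. Among the 53 genes, 10 were called negative and 7 positive in limma's test, where 4.04% of all features were negative and 47.5% positive. The 10 were RPA3 (-0.93), MCM10 (-0.80), WDHD1 (-0.79), TIPIN (-0.77), GINS1 (-0.70), ORC6 (-0.63), ORC1 (-0.60), MCM8 (-0.58), ORC4 (-0.55) and PRIM1 (-0.50). For ORC4 the value reflects a later rise and not an early fall, with a change of -0.014 at day 2. For RPA3 it joins a day 2 change of -0.37, not called, to a later rise. The RPA3 mean log2(TPM + 1) went from 4.28 at day 2 to 4.84 at day 5.

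The 7 with the larger fall later were CDC6 (2.29, limma adjusted p = 1.82e-06), RFC1 (1.0), CDT1 (0.86), FEN1 (0.77), MCM6 (0.72), POLD2 (0.72) and TIMELESS (0.70). CDC6 and CDT1 were called positive on the deposited scale, after rescaling (1.86 and 0.68) and with a pseudocount of 0.1 TPM (3.14 and 2.48). The other calls among the 7 depended on the scale. At a fold threshold of 1 on the deposited scale, CDC6 and RFC1 stayed positive and CDT1 did not. Rescaled, 22 genes were negative and 2 positive, with 13.8% and 13.2% of all features, and the 2 were CDC6 and CDT1. With the smaller pseudocount, 2 were negative, RPA3 and ORC4, and 14 positive, and MCM10 turned to 1.35. The share of all features called with that pseudocount is not given here. These counts therefore cannot be read as a trait of the replication genes, since 47.5% of all features were positive on the deposited scale. A constant of 1 hides falls below 1 TPM, and genes near 0 by day 3 had little of the log2(TPM + 1) scale left to lose. In the mitosis list, 0 of 30 were negative and 28 positive.

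**Figure D3:**
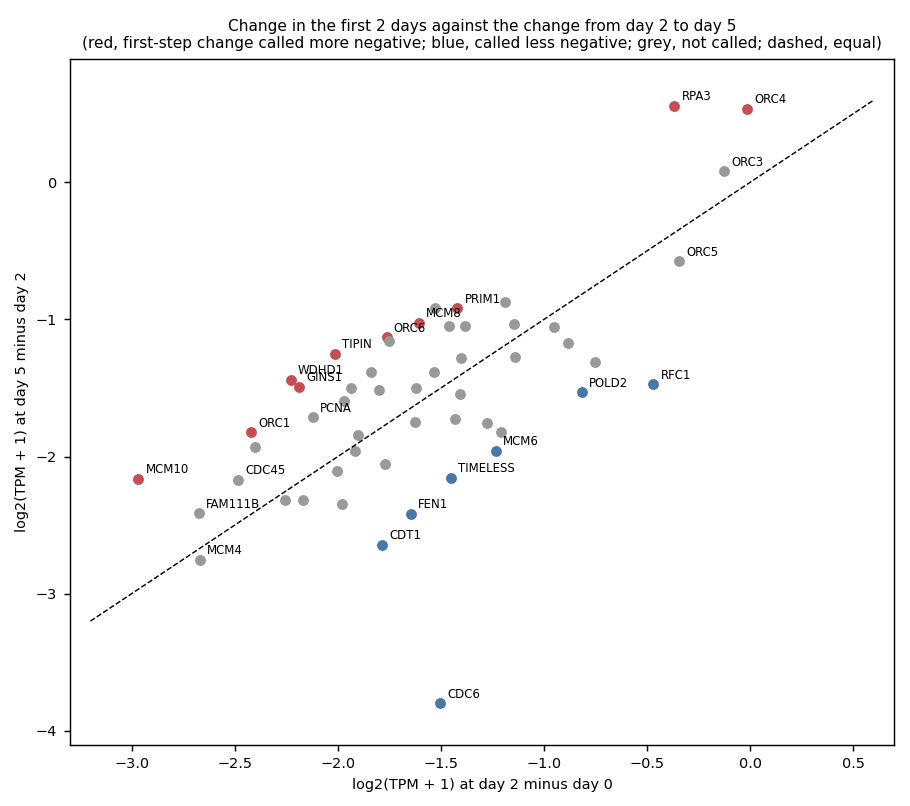
Change in the first 2 days against the later change. Each point is a gene, the x axis the difference in log2(TPM + 1) between day 2 and day 0 and the y axis that between day 5 and day 2. Red genes were called negative and blue genes positive in the difference of the steps, and CDC6 lies furthest from the dashed line of equal change, 2.29 below it at -1.50 on the x axis.

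Of the fall that each gene reached at day 5, a median of 51.4% was present at day 2 and 90.6% at day 3, over the 50 genes whose log2 level was lower by more than 0.5 at day 5. The range at day 2 ran from 24.2% in RFC1 to 62.6% in POLD3. Between days 2 and 3, 49 of the 53 passed as lower and 1 as higher, ORC4 (55.5% and 3.22% of all features). Rescaled, 38 were lower and 3 higher (13.6% and 14.3% of all features). Between days 3 and 5, 12 were lower and 0 higher (13.1% and 0.67%). After rescaling, CDC6 and FAM111B were lower and RPA3 higher (2.03% and 4.43%). The 12 were CDC6, MCM6, TIPIN, FAM111B, TOPBP1, GMNN, MCM4, PCNA, MCM2, RFC3, FEN1 and POLD2, and their number was 7 without day 3 replicate 2 or without day 5 replicate 1.

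A difference between 2 genes in the same library does not move with the scale of that library, apart from the added constant. For 10 pairs of partners, the 9 treated libraries were compared with the 3 untreated ones by an exact two-sided permutation test over 220 choices, in which the smallest possible p is 0.00909. Of the 10, 6 passed after adjustment over the pairs. The pairs were chosen with earlier results of these data known, so their p-values are not those of an independent test. PCNA minus RFC1 was 2.13, 2.28 and 2.42 untreated and between 0.14 and 0.76 in all treated libraries, a change of -1.80 (adjusted p = 0.0182, exact test). As TPM the clamp was at 4.96 times its loader subunit untreated and at 1.56, 1.38 and 1.34 times on the 3 days.

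CDC6 minus ORC2 changed by -2.26, ORC1 minus ORC2 by -2.08, POLE2 minus POLE by -1.10 and MCM2 minus MCM7 by -0.93, each lower in 9 of 9 treated libraries (adjusted p = 0.0182 for each, exact permutation test). CHAF1B minus CHAF1A was higher by 1.16 (adjusted p = 0.0303, exact test), but with a pseudocount of 0.1 TPM the change was 0.68 and its adjusted p 0.0779. CDT1 minus GMNN changed by -0.86, which did not pass (adjusted p = 0.182, exact test). Its day 2 libraries (-1.52, -1.47 and -1.50) lay within the range of the untreated ones (-1.39, -1.73 and -1.52). DBF4 minus CDC7, POLA1 minus POLD1 and TIPIN minus TIMELESS did not pass either, with changes of -0.20, -0.21 and 0.17.

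TIPIN minus TIMELESS moved in opposite directions on different days. It was 0.41, 0.46 and 0.40 untreated, -0.21, -0.11 and -0.10 on day 2, 1.31, 0.89 and 1.29 on day 3 and 1.07, 0.47 and 0.75 on day 5. Day 2 lay below and days 3 and 5 above all untreated libraries. With 3 libraries against 3, a single day cannot give an exact p below 0.10, and each of these 3 days gave 0.10.

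**Figure D4:**
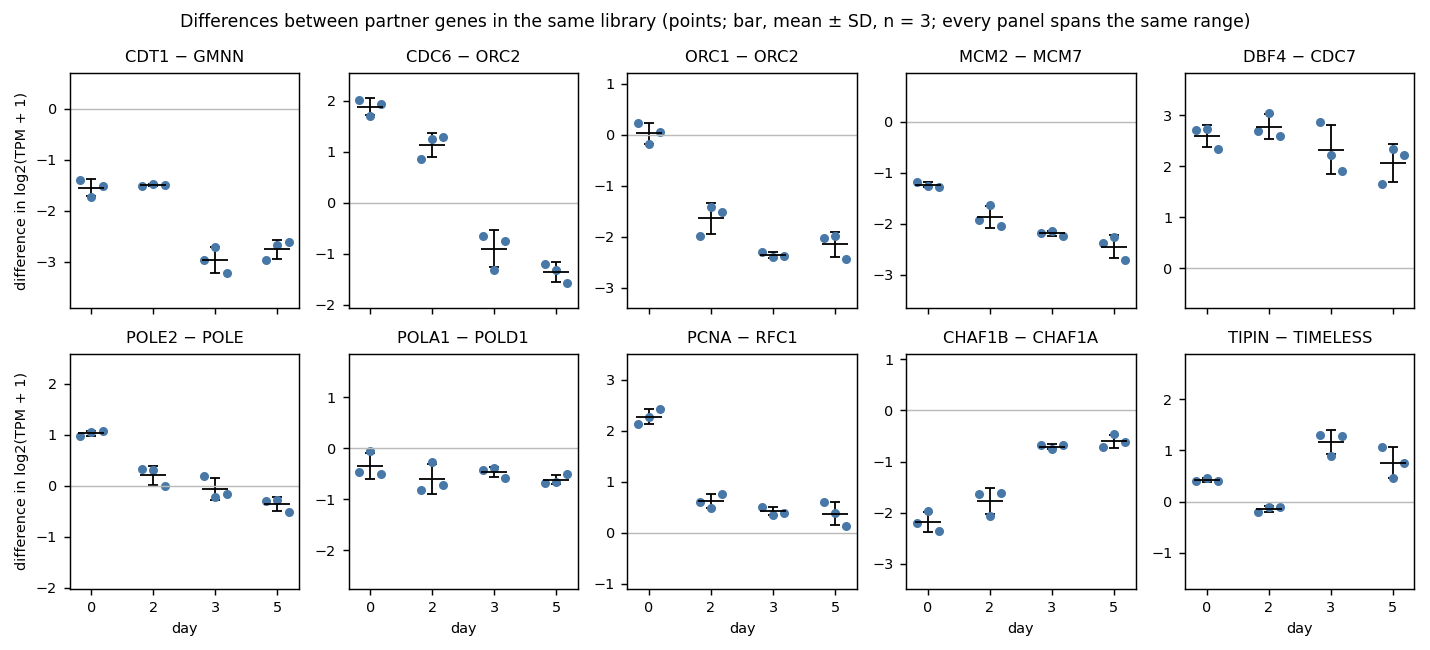
Within-library differences of 10 pairs of partner genes. The y axis is the difference in log2(TPM + 1), the x axis the day, points are libraries, bars are mean ± SD (n = 3) and every panel spans the same range. PCNA minus RFC1 drops at day 2 and stays down, CDC6 minus ORC2 drops at each step, CDT1 minus GMNN drops at day 3, and TIPIN minus TIMELESS dips at day 2 and rises at day 3.

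The relation between the untreated level and the change depended on the measure. Across the 53 genes, the untreated log2 level and the percent of TPM left correlated with Pearson's r = 0.0319 at day 2 and -0.0125 at day 5 (Spearman's rho 0.0894 and 0.0982). With the log2 fold change at day 5 the values were r = -0.296 and rho = -0.329, on a scale where the added constant limits the fall of low genes. Genes are not independent replicates, and both measures share the untreated libraries.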

How the data were processed

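RNA-seq of 12 MM1S libraries was analysed from the table the authors deposited, which holds log2 values of TPM plus 1 per gene symbol. The submitters' processing notes name FastQC, Trimmomatic, STAR, Salmon and hg38, and versions, annotation and strand setting are not given in the sources used here. Features with at least 1 TPM in at least 3 libraries (11939 of 59276) were fitted with limma 3.58.1 in R 4.3.3, with 1 mean per group, all 12 libraries and a mean-variance trend. Two-sided p-values were adjusted over all tested features by the Benjamini-Hochberg method. Calls required a log2 change of more than 0.5 and an adjusted p under 0.05. The procedure was tested on simulated data. TPM, percent of untreated TPM and ratios were computed by undoing the log2. For rescaling, each library was shifted to a median log2 deviation of 0 over the 5433 features with a mean of at least 10 TPM. Pair differences used exact permutation tests in scipy 1.17.1. Promoters came from RefSeq (GRCh38.p14) and gene positions from GENCODE release 29.

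The members, lists and pairs were chosen with earlier results of these data known. Genes are named by role: MCM2 to MCM7, the largest and smallest falls of each role, and each gene not called lower on some day, with others by value. Other settings were no filter, a minimum of 5 TPM, a pseudocount of 0.1, leaving out the 20 most abundant features, no trend, a fold threshold of 1, fits of 2 groups and leaving out each library. The precision of a value is the spread of 3 libraries.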

Additional observations from a re-analysis of the deposited data

Results flagged for a closer look

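Values that differed between neighbouring days of treatment, by limma's test of the difference itself, are collected here. Between days 2 and 3, 49 of the 53 were lower and 1 was higher, where 55.5% and 3.22% of all features were. Rescaled, 38 were lower and 3 higher. The log2 changes of the named genes were -2.92 for CDC6, -2.21 for MCM4, -2.06 for CDC45, -2.03 for CHAF1A, -1.91 for FEN1, -1.83 for TIMELESS, -1.78 for FAM111B, -1.73 for POLA2, -1.61 for ORC1, -1.35 for RFC4, -0.90 for RPA1 and 0.64 for ORC4. Between days 3 and 5, 12 were lower, where 13.1% of all features were, and after rescaling 2 were lower. The log2 changes of the 12 were -0.88 for CDC6, -0.74 for MCM6, -0.72 for TIPIN, -0.63 for FAM111B, -0.59 for TOPBP1 and GMNN, -0.54 for MCM4 and PCNA, -0.51 for MCM2, and -0.50 for RFC3, FEN1 and POLD2. Those near -0.50 sit at the threshold for a call.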

How the results depend on the processing

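No paired analysis was possible because the library names share no replicate numbers between groups. The counts of genes lower than untreated at days 2, 3 and 5 stayed within 1.5 times of the main counts in every setting run. Other counts did not, and the cause was not tested unless given. Rescaling gave 3, 3 and 3 genes higher at day 3, at day 5 and from day 2 to day 3, 2 lower and 1 higher from day 3 to day 5, and 22 negative and 2 positive in the difference of the steps. A pseudocount of 0.1 gave 25 lower from day 3 to day 5, and 2 negative and 14 positive. For settings other than the main one and rescaling, the shares of all features called are not given here. A fold threshold of 1 leaves 0 higher at day 3, at day 5 and from day 2 to day 3, 0 lower from day 3 to day 5, and 0 negative and 2 positive, since it is stricter. The 2 positive were then CDC6 and RFC1, and CDT1 (0.86) was not called. With no filter 4 were negative. Without the 20 most abundant features, 2 were higher at day 5 and 1 was higher from day 3 to day 5. With each library left out in turn, the genes higher at day 5 numbered 0 to 1, those lower from day 3 to day 5 numbered 7 to 16, those higher from day 3 to day 5 numbered 0 to 1, and those negative in the difference of the steps numbered 6 to 10 (6 without untreated replicate 2, day 2 replicate 2 or day 2 replicate 3).

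Directions turned as follows. Rescaled, ORC3 was at 0.10 at day 2 and 1.14 at day 5, ORC4 at 0.21 at day 2, ORC5 at 0.37 and 0.26 at days 3 and 5, RPA3 at 0.56 at day 3, PRIM2 at 0.036 and TIPIN at 0.033 from day 2 to day 3, and POLD2 at -0.0100 in the difference of the steps. Without the 20 most abundant features, ORC3 was at 0.27 at day 5 and ORC4 at 0.077 at day 2. With each library left out, ORC4 at day 2 ran from -0.064 to 0.055, above 0 without untreated replicate 2 (0.037) or day 2 replicate 1. With a pseudocount of 0.1, the difference of the steps was 0.59 for GINS1, 1.35 for MCM10, 1.18 for ORC1 and 0.44 for the median gene, and DBF4 minus CDC7 was 0.37.

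For the pairs, leaving out each of the 12 libraries in turn gave changes from -2.46 to -2.11 for CDC6 minus ORC2, -2.19 to -1.98 for ORC1 minus ORC2, -1.0 to -0.86 for MCM2 minus MCM7, -1.15 to -1.05 for POLE2 minus POLE, -1.87 to -1.73 for PCNA minus RFC1 and 1.07 to 1.29 for CHAF1B minus CHAF1A. Without 1 untreated library none of these pairs passed, since 2 untreated libraries leave too few choices. Single days, which cannot pass with 3 libraries against 3, gave -0.75, -2.78 and -3.24 for CDC6 minus ORC2, -1.67, -2.38 and -2.18 for ORC1 minus ORC2, -0.63, -0.95 and -1.21 for MCM2 minus MCM7, -0.82, -1.09 and -1.39 for POLE2 minus POLE, -1.65, -1.85 and -1.89 for PCNA minus RFC1, and 0.42, 1.48 and 1.58 for CHAF1B minus CHAF1A at days 2, 3 and 5. Day 2 alone gave 0.051 for CDT1 minus GMNN, 0.18 for DBF4 minus CDC7 and -0.56 for TIPIN minus TIMELESS. With a pseudocount of 0.1, CHAF1B minus CHAF1A was 0.68 and did not pass. TPM keeps no depth, so counting error could not be set beside any of these values.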
